A study of Mus musculus with 6 samples.

Results

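The replication-dependent histone genes are the short, mostly clustered genes that supply histone protein while DNA is being copied. They were taken from the RefSeq table of the mouse genome by symbol (H1f, H2ac, H2bc, H3c or H4c followed by a digit, or the older Hist form), which gave 70 of 49939 genes. Of the 70, 67 were protein-coding and 3 were pseudogenes (H2ac14, H2ac5-ps and H1f11-ps). By class there were 11 H1, 19 H2A, 16 H2B, 12 H3 and 12 H4 genes, with 55 on chromosome 13, 10 on chromosome 3 and 5 elsewhere. No gene on chromosome 11 matched by symbol. The symbol rule also took in linker histone genes that are usually counted as replication-independent, among them H1f0 and H1f10. H1f7 and H1f8, known mainly from germ cells, likewise lay outside chromosomes 3 and 13.

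Binding of E2F1 was measured by chromatin immunoprecipitation and sequencing (ChIP-seq) in NIH/3T3 cells, an established mouse fibroblast line. The E2F1 group (2 libraries) carried a stably integrated doxycycline-inducible E2F1 construct, and the EV group (2 libraries) carried the matching empty vector. Both groups were held in 0.25% serum for 48 hours to bring them to a resting state and then given doxycycline, labelled at 500 ng/ml, for 12 hours, so EV cells shared the starvation and the drug. The names of the deposited lists carry another dose than the labels, so the dose is uncertain. The labels do not say whether each construct was 1 clone or a pool, and the level of induced E2F1 relative to the cell's own is not given in the sources used here.

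Histone mRNA of this kind ends in a stem-loop in place of a poly(A) tail and is made mainly in S phase. Its transcription is organised by NPAT, a substrate of cyclin E and CDK2, and class-specific promoter elements are bound by other factors: the octamer by OCT1 in H2B genes, and an H4 element by HINFP. E2F1 is known for binding the promoters of genes needed for the entry into S phase. The histone genes and some of the genes that drive or process their mRNA are switched on at that point.

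The promoter sequences that the results turn on came from RefSeq (GRCm38.p6), 5′ to 3′ in the direction of the gene. The 200 bases before the start are shown for the highest-scoring member of each class and for 3 members with no peak in any library. Capitals mark each match to TTTNNCGC (N being C or G; GCGNNAAA on the other strand), the form of the E2F motif that was searched on both strands, and a promoter with no capitals has none in these bases.
H4c1, chr13:23761250-23761449, minus strand, peak in both E2F1 libraries: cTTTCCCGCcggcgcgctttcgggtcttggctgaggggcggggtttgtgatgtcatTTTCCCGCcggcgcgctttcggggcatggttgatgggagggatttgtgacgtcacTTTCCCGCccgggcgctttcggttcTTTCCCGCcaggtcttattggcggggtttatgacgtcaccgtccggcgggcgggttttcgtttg
H3c15, chr3:96239128-96239327, minus strand, peak in both E2F1 libraries: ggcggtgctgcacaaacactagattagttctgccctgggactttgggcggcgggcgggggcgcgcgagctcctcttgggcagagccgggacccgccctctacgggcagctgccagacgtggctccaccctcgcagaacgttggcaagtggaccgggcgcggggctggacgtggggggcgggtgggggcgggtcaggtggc
H2ac19, chr3:96240375-96240574, minus strand, peak in both E2F1 libraries: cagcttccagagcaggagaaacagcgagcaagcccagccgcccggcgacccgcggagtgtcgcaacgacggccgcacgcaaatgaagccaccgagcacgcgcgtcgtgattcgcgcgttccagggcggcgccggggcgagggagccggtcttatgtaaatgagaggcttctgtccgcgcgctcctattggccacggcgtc
H2bc14, chr13:21721844-21722043, plus strand, peak in both E2F1 libraries: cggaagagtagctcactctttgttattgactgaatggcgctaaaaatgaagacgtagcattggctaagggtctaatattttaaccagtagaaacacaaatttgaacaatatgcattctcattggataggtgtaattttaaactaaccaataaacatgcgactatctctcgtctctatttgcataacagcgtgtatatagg
H1f0, chr15:79028012-79028211, plus strand, peak in both E2F1 libraries: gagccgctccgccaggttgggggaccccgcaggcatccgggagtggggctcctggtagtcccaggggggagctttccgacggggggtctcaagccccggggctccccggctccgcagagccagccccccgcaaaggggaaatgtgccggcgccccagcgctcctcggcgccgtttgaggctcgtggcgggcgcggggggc
H2ac6, chr13:23683960-23684159, minus strand, no peak: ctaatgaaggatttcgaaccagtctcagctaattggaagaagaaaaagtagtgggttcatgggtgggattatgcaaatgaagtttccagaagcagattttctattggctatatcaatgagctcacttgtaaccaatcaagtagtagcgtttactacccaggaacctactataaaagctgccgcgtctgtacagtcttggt
H3c11, chr13:21783398-21783597, minus strand, no peak: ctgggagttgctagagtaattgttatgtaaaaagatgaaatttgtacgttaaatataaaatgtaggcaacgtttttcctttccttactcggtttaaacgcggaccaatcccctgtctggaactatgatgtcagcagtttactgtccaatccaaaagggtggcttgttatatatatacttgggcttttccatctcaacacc
H4c6, chr13:23551669-23551868, minus strand, no peak: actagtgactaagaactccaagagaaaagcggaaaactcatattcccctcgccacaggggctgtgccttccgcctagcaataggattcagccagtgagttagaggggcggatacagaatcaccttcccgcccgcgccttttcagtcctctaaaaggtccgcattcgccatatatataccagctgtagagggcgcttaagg

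Among these 8 promoters, the H4c1 promoter was the only one with the motif, which it held 4 times as TTTCCCGC, at positions -199, -144, -89 and -64 from the gene start. H3c15, H2ac19, H2bc14 and H1f0 had a peak in both E2F1 libraries and no match in the bases shown. Their peak summits, the bases of highest signal, lay outside these bases. At H2ac19 the summits were 1314 bp (replicate 1) and 1297 bp (replicate 2) after the start, inside H3c15. At H2bc14 they were at -358 and -380 bp, inside H2ac14. At 5 H2A genes there was a match of the form TTTCGCGC, shown here within 30 bases to compare its surroundings. H2ac22 and H2ac11 also held a match on the other strand, GCGGCAAA, at 40 and 32 bases after the start. Across the 5 stretches, 2 of the 22 flanking positions were identical in all. The peak label on each line is that of the gene, and the match itself can lie outside the peak.
H2ac22, chr13:21787282-21787311, minus strand, peak in both E2F1 libraries: cgtaggctcttTTTCGCGCttggagaatcc
H2ac12, chr13:22035629-22035658, minus strand, peak in both E2F1 libraries: cgggcctccttTTTCGCGCcctggcttgac
H2ac11, chr13:22042993-22043022, minus strand, peak in replicate 2 only: cgaacgttcctTTTCGCGCccagagaaaac
H2ac10, chr13:23533816-23533845, plus strand, peak in both E2F1 libraries: gatcactccgtTTTCGCGCcagaagttgag
H2ac7, chr13:23574381-23574410, plus strand, peak in both E2F1 libraries: cataggtccttTTTCGCGCccagcgaataa

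E2F1 libraries had peaks at most of these histone genes and EV libraries had none. A gene was counted when a listed peak overlapped the gene or the 1000 bp on either side. E2F1 replicate 1 had a peak at 42 of the 70 genes (60.0%) and E2F1 replicate 2 at 45 (64.3%). Either EV library had a peak at 0 of the 70. The mean was 62.1% ± 3.03 (SD, n = 2) in the E2F1 group and 0% in the EV group, and the groups did not overlap (exact two-sided permutation test, p = 0.33, the smallest that 2 against 2 libraries can give). The nearest EV peak to any of the 70 genes lay 2441954 bp from H2ac21 in EV replicate 1 and 1315321 bp from H1f8 in EV replicate 2.

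The EV lists were short, with 70 and 358 peaks against 7836 and 8027 in the E2F1 libraries, so a count of 0 was also common elsewhere. Of all 21883 protein-coding genes, 36.9% and 38.2% had a peak in replicates 1 and 2 of the E2F1 group. The EV shares were 0.0366% for replicate 1 and 0.407% for replicate 2. The lowest local background among the listed peaks was 1.85 and 1.86 reads in the E2F1 libraries and 2.20 and 1.18 reads in the EV libraries. A short list may not reach the lowest background of its library, so these values do not settle how the libraries compare in depth. Every list had been cut near a −log10 p-value of 10, so sites weaker than that were not analysed here. Nothing in the labels says that replicates came from separate cultures, so their spread may be technical.

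In both E2F1 libraries, 40 of 70 histone genes (57.1%) had a peak, 7 had one in a single library and 23 had none. The same count over all protein-coding genes was 34.4%, and over all annotated genes 18%. H2ac24 is among the 40 through a different peak in each library. How far the histone genes stood from that background depended on how a peak was tied to a gene. A peak overlapped the gene itself in both libraries at 38.6% of the histone genes and 32.9% of protein-coding genes. The summit, the base of highest signal, lay inside the gene at 25.7% of the histone genes (18 genes) and 25.2% of protein-coding genes. With only peaks at or above the median score of all E2F1 peaks, the window held one in both libraries at 17.1% of the histone genes (12 genes) and 16.9% of protein-coding genes. By those last measures the histone genes were near the background. Their annotated length was also unlike it, with a median of 494.5 bp against 17170 bp for protein-coding genes.

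Many of the 40 genes shared a peak with a neighbour. The peaks at histone genes merged into 32 sites, of which 24 were found in both E2F1 libraries, 3 in replicate 1 only and 5 in replicate 2 only. Of the 24 sites, 13 lay in the window of 2 or more histone genes and 11 in the window of 1, and no site served more than 3. Summits of a site were a median of 42 bp apart between the libraries, 15 of the 24 were within 50 bp, and the widest gap was 308 bp.

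**Figure D1:**
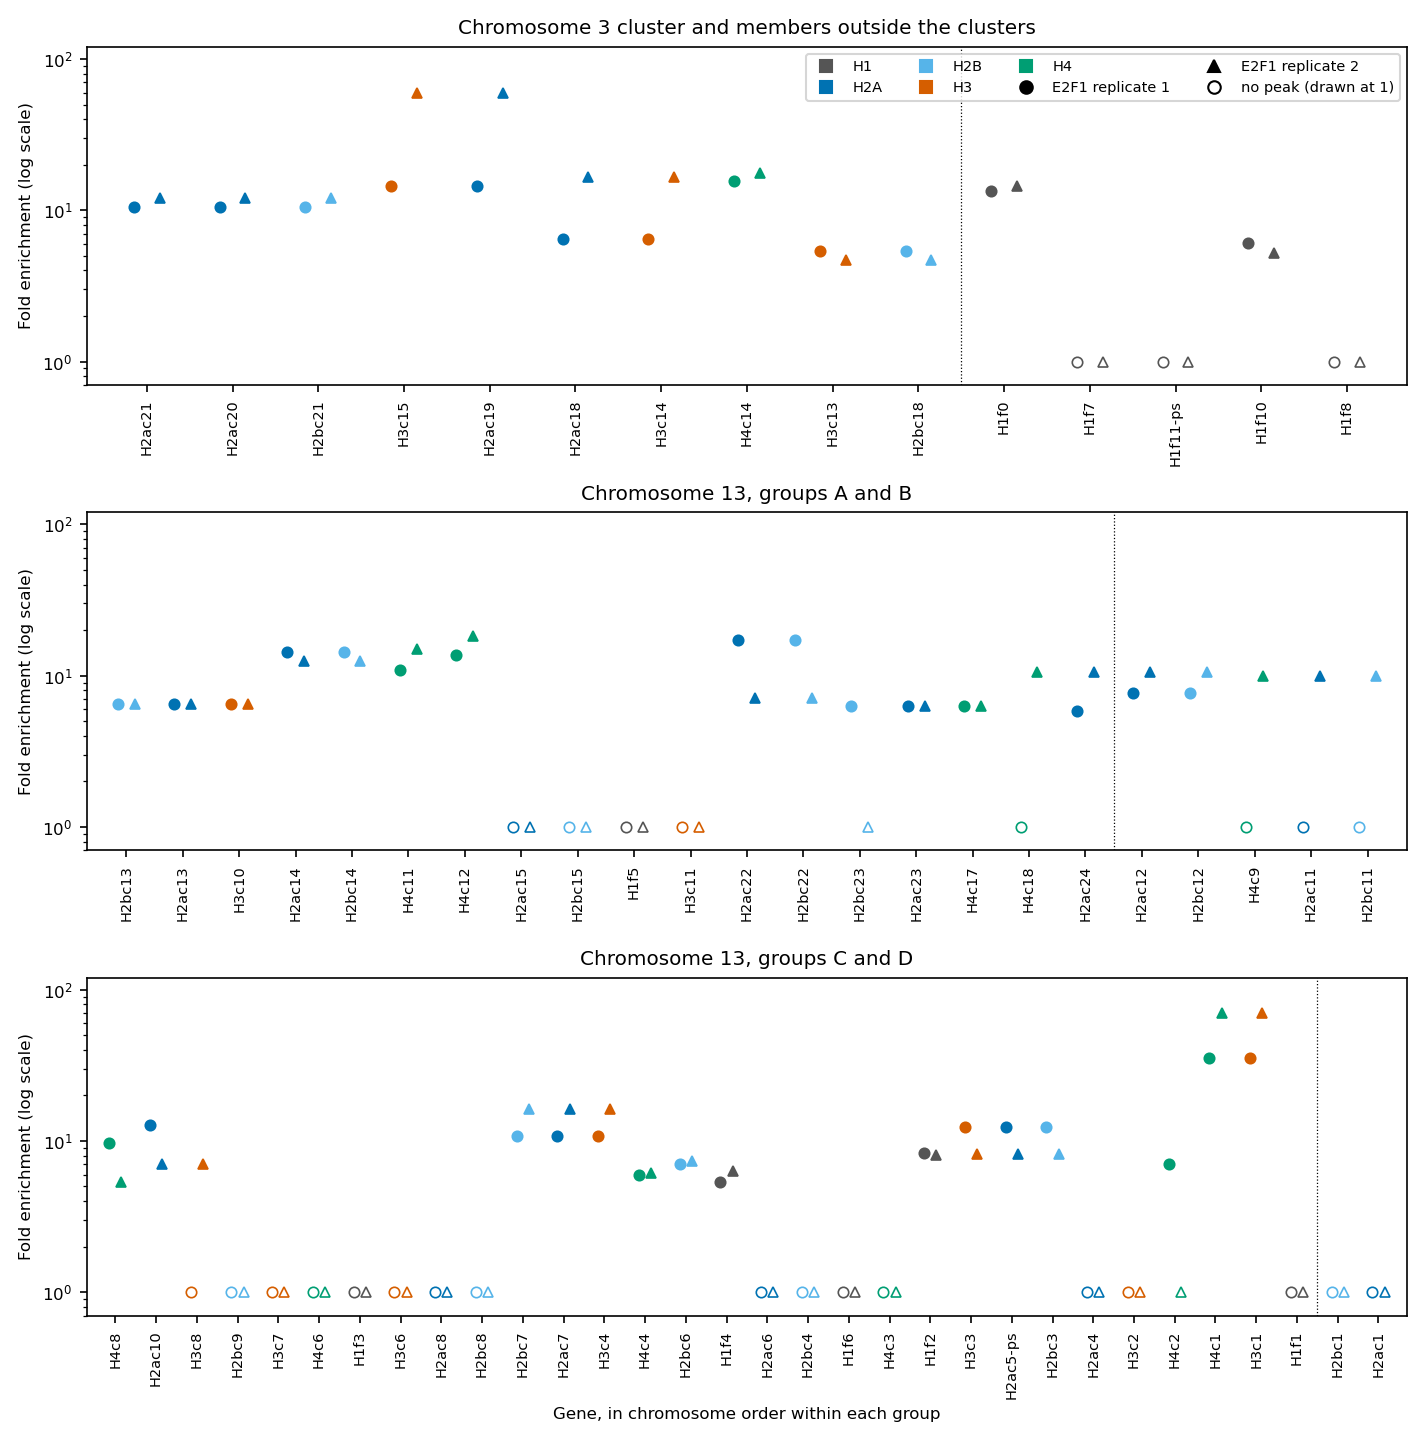
Fold enrichment of the highest-scoring peak in the window of each histone gene (log axis), in chromosome order, with circles for E2F1 replicate 1, triangles for E2F1 replicate 2 and colours for histone class; open symbols at 1 mark genes with no listed peak. All 10 chromosome 3 genes carry filled symbols in both libraries, while open symbols run in stretches along chromosome 13, and neighbours that share a peak show equal values.

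H4 genes included the site with the highest fold enrichment. H4c1 (chr13:23760795-23761249), which encodes histone H4, had a fold enrichment of 35.1 in E2F1 replicate 1 and 69.6 in E2F1 replicate 2, with no peak in either EV library. The peak also reached H3c1, the H3 gene that lies beside it, and its summits fell between the genes at 23761406 and 23761397, 9 bp apart. Its score stood at percentile 93.0 and 98.8 of the libraries' lists. The H4c1 motif at position -144 was the nearest to the summits, 16 and 7 bp away, and all 4 matches lay inside the peak in both libraries.

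By mean score H4c12 followed within the class, at a fold enrichment of 13.7 in replicate 1 and 18.2 in replicate 2. H4c14, the single H4 gene on chromosome 3, had 15.7 and 17.5. In all, 7 of 12 H4 genes (58.3%) had a peak in both libraries, against 34.4% of protein-coding genes. A peak overlapped the gene itself at the same 7, against 32.9%, and the summit lay inside the gene at 3 of 12, against 25.2%. H4c2 had a peak in replicate 1 only (7.02), while H4c9 and H4c18 (10.5) had peaks in replicate 2 only. At H4c9 the peak with its summit inside the gene had 7.49, and another, with its summit inside H2ac11, had 9.93. H4c3 and H4c6 had none.

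H3 genes shared the other outstanding site. H3c15 (chr3:96238479-96239127), on chromosome 3 next to the H2A gene H2ac19, lay under a peak of fold enrichment 14.5 in E2F1 replicate 1 and 59.7 in E2F1 replicate 2, and no EV peak. At that site replicate 2 had the higher pileup, 251 reads against 108 in replicate 1, and the lower local background, 3.22 against 6.49 reads. Its score percentiles were 85.9 and 99.3.

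H3c14, with its neighbour H2ac18, had a fold enrichment of 6.48 in replicate 1 and 16.5 in replicate 2. Both of these gene pairs are near-copies: the promoters of H3c14 and H3c15 share an identical run of 231 bases, and those of H2ac18 and H2ac19 one of 219 bases. Reads from such stretches could be assigned to either copy or dropped, so the values of these 4 genes are uncertain. The same holds for H4c17 and H4c18, which share 285 bases, and for H2ac24, H2bc23 and H2ac23. H2ac24 shares 233 bases with H2bc23 and 200 with H2ac23. Of 12 H3 genes, 7 (58.3%) had a peak in both libraries, against 34.4% of protein-coding genes. A peak overlapped the gene itself at 4 of the 12 (33.3%, against 32.9%), and the summit lay inside it at 3, against 25.2%. H3c8 had a peak in replicate 2 only, and H3c2, H3c6, H3c7 and H3c11 had none.

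H2A genes had the highest share with a peak in both libraries, 13 of 19 (68.4%), next to 9 of 16 H2B genes (56.2%) and the 34.4% of protein-coding genes. With only peaks that overlap the gene itself, H2A had 10 genes (52.6%) and H2B had 2 (12.5%), above and below the 32.9% of protein-coding genes. H2ac19 (chr3:96239779-96240374) had the values of the H3c15 site and H2ac18 those of the H3c14 site, where the summits of these peaks lay inside the H3 genes in both libraries. In replicate 2 a separate peak lay at H2ac18 alone, with a fold enrichment of 13.3 and its summit at -213 bp, before the H2ac18 start. H2ac14, a pseudogene, came next at a fold enrichment of 14.3 in replicate 1 and 12.4 in replicate 2. H2ac11 had a peak in replicate 2 only (9.93), and H2ac1, H2ac4, H2ac6, H2ac8 and H2ac15 had none.

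H2B genes were reached by peaks whose summits lay elsewhere. H2bc14, next to H2ac14, had the same values of 14.3 and 12.4. H2bc7 had 10.8 and 16.4, and H2bc21 had 10.5 and 12.1. H2bc23 had a peak in replicate 1 only (6.34) and H2bc11 in replicate 2 only (9.93), while H2bc1, H2bc4, H2bc8, H2bc9 and H2bc15 had none. The single H2B gene with a summit inside it in both libraries was H2bc6, and only because its annotated span is 37455 bp long.

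H1 genes had the lowest share, 4 of 11 (36.4%), close to the 34.4% of protein-coding genes. H1f0, on chromosome 15, the linker histone linked to differentiated and resting cells, led the class with a fold enrichment of 13.3 in replicate 1 and 14.5 in replicate 2. H1f2 had 8.31 and 8.05, H1f10 on chromosome 6 had 6.09 and 5.20, and H1f4 had 5.39 and 6.30. H1f1, H1f3, H1f5, H1f6, H1f7, H1f8 and the pseudogene H1f11-ps had no peak. H1f6, H1f7, H1f8, H2ac1 and H2bc1 are known mainly from germ cells, and 0 of these 5 had a peak. The share of protein-coding genes with a peak in both libraries was 34.4%, and 23 of all 70 histone genes had none. Whether the 5 differ from the others was not tested.

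**Figure D2:**
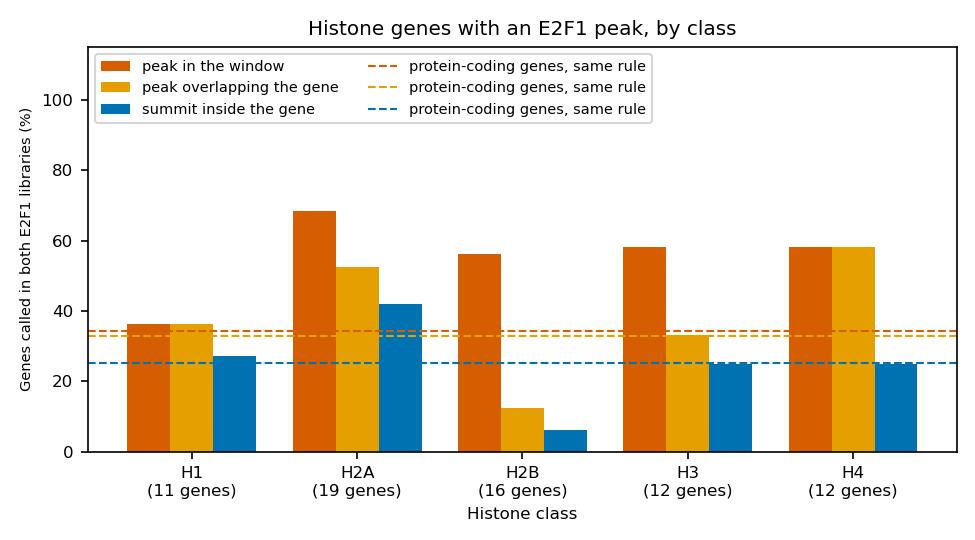
Share of the genes of each histone class called in both E2F1 libraries by 3 rules (a peak in the window, a peak overlapping the gene, the summit inside the gene), as bars from 0, with a dashed line of the same colour for protein-coding genes (34.4%, 32.9% and 25.2%). By the window rule H1 (36.4%) sits near its line and the other classes above theirs. By the other rules H2B drops below the lines (12.5% for overlap) and H3 comes near them (33.3% for overlap).

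By position, the chromosome 3 cluster was the one with a peak in the window of every gene. All 10 genes between 96219885 and 96270192, a span of 50.3 kb, had a peak in both E2F1 libraries, resting on 5 sites. On chromosome 13, genes no more than 100 kb apart formed 4 groups, called A to D from the lower coordinate up. Group A (117.8 kb) had a peak in both libraries at 12 of 18 genes (66.7%) and group B (8.54 kb) at 2 of 5 (40%). Group C (233.4 kb) had one at 14 of 30 (46.7%), and group D (1.19 kb) at 0 of 2. The share over protein-coding genes was 34.4%, and over all annotated genes 18%. With only peaks that overlap the gene itself, 7 of the 10 chromosome 3 genes had one in both libraries. By that rule group A had 7 of 18, group B 1 of 5, group C 10 of 30 and group D 0 of 2, against 32.9% of protein-coding genes.

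Within the chromosome 13 groups, genes without a peak lay side by side. The longest run, in group C, held 7 consecutive genes over 28.9 kb: H2bc9, H3c7, H4c6, H1f3, H3c6, H2ac8 and H2bc8. A run of 4 in group A held H2ac15, H2bc15, H1f5 and H3c11, and another run of 4 in group C held H2ac6, H2bc4, H1f6 and H4c3. Group B changed most between the libraries, from 2 of 5 genes in replicate 1 to 5 of 5 in replicate 2. The 7 other annotated genes within the spans, of which only Hfe is protein-coding, had no peak in any library. Over all annotated genes, 18% had a peak in both E2F1 libraries.

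Outside the groups, H1f0 and H1f10 had a peak in both libraries and H1f7, H1f8 and H1f11-ps had none. A further 6 histone genes carry the old cluster names only as synonyms and were not members. Of these 6, H4f16 on chromosome 6 had a peak in both E2F1 libraries (6.75 and 4.57), and H2aw and H2bu2 on chromosome 11 had none.

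The peaks at histone genes leaned to low ranks in their lists. Members' windows held 27 peaks in E2F1 replicate 1 and 30 in replicate 2, which is 0.345% and 0.374% of the lists. Their median score percentile was 41.0 in replicate 1 and 34.0 in replicate 2, where a whole list has 50. Among them, 1 and 2 peaks reached the top 10% of their list, and 9 and 14 fell in the bottom 20%. Median fold enrichment was 8.31 against 9.19 for the list in replicate 1, and 8.15 against 11.3 in replicate 2. The pileup was lower too, with a median of 39 reads against 47 in replicate 1 and 31 against 45 in replicate 2.

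**Figure D3:**
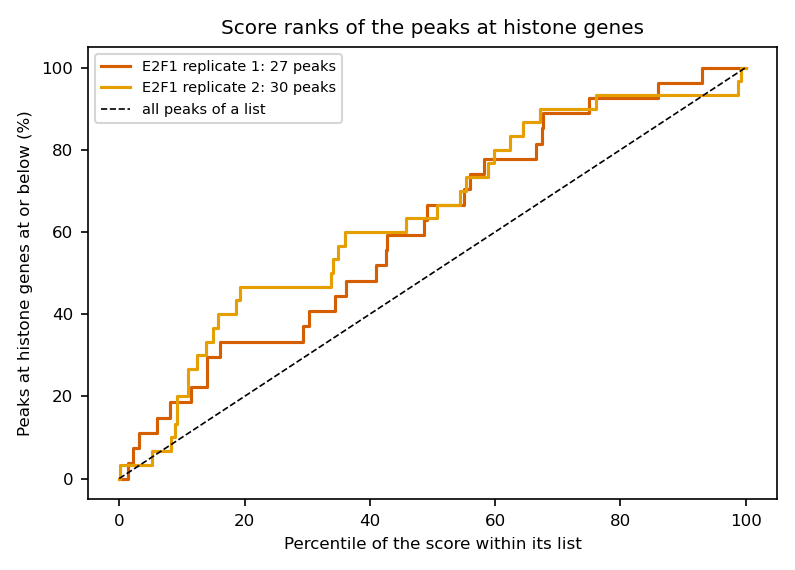
Cumulative share of the peaks at histone genes against the percentile of their score in the list they come from, for E2F1 replicate 1 (27 peaks) and E2F1 replicate 2 (30 peaks); the dashed diagonal is a whole list. Both curves lie mostly above the diagonal, with medians of 41.0 and 34.0, so the peaks lean to low ranks apart from the few near 100.

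The libraries ranked the 24 shared sites alike by pileup and less so by fold enrichment. Spearman's rho over the sites was 0.82 for pileup, 0.64 for fold enrichment and 0.31 for local background, given as descriptions because the sites share their libraries. Fold enrichment was higher in replicate 2 at 15 of the 24. Sites found in one library all lay below the middle of their list. The highest score percentile was 13.98 among those of replicate 1 only and 36.1 among those of replicate 2 only. The latter was above the median of 34.0 for all peaks at histone genes in replicate 2.

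**Figure D4:**
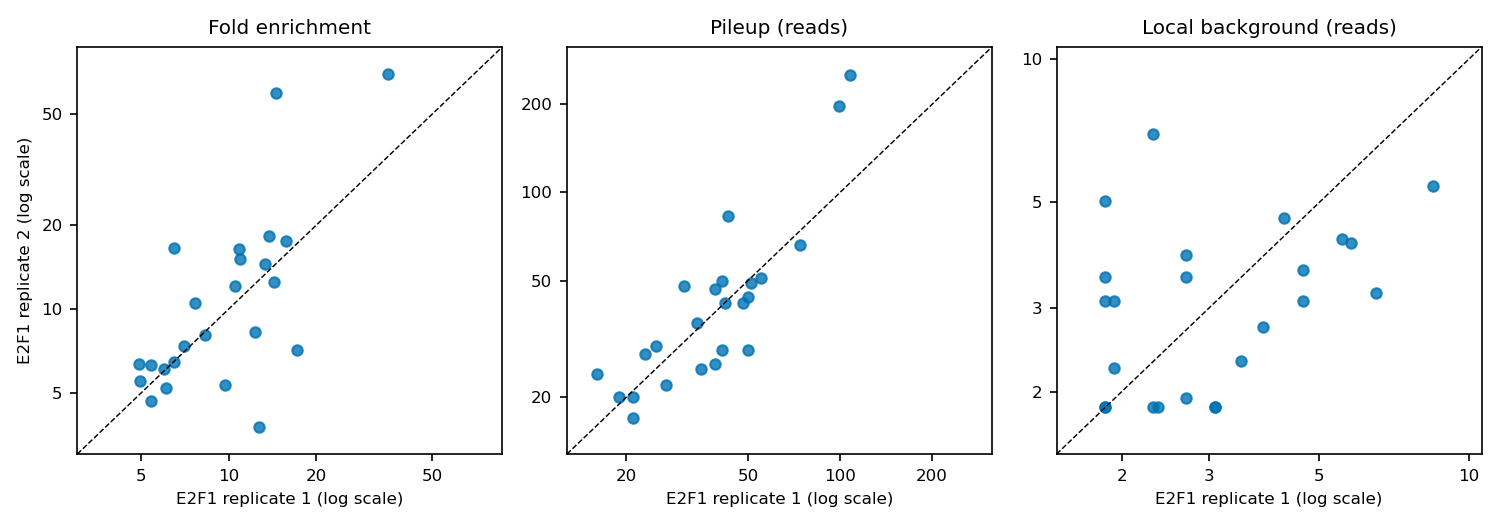
Fold enrichment, pileup and local background (reads) of the 24 histone sites found in both E2F1 libraries, replicate 1 on the x axis and replicate 2 on the y axis, all log axes, with the dashed line of equality. Pileup follows the line most closely (rho 0.82), and the H3c15 and H4c1 sites stand apart at the top right of the pileup panel.

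H2A and H2B genes often lie head to head, sharing the stretch between their starts, and there the summit lay on the H2A side. Of 9 such pairs with starts 164 to 281 bp apart, 4 had a peak at both genes in both libraries, 2 had other patterns and 3 had none. Wherever a summit fell inside a gene of a pair it was the H2A gene, in both libraries at H2ac13, H2ac22, H2ac12 and H2ac7, in replicate 1 at H2ac23 and in replicate 2 at H2ac11.

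Taking each peak to its nearest protein-coding start, summits at H2A genes lay a median of 239 bp after the start in replicate 1 (7 peaks) and 180 bp after it in replicate 2 (8 peaks). At H2B genes the medians were -389 and -409 bp, before the start (3 peaks each, at H2bc14, H2bc3 and H2bc6). The summits at H2bc14 and H2bc3 lay inside the H2A pseudogenes H2ac14 and H2ac5-ps, which were left out of the protein-coding starts. The summit at H2bc6 lay inside its long annotated span. Over all histone genes the medians were 186.5 and 152.5 bp after the start, and 79.2% and 67.9% of summits lay after it. Across all peaks near a protein-coding start the medians were 140 and 68.5 bp, with 76.4% and 67.2% after the start, so lying after the start was common in these lists.

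**Figure D5:**
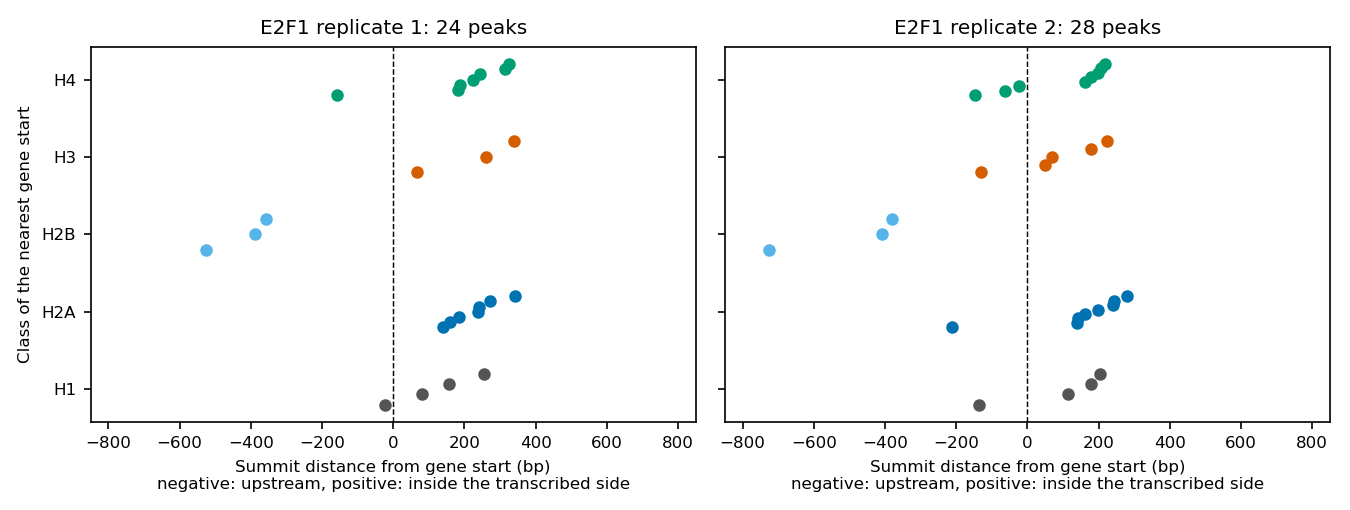
Distance of each summit from the nearest gene start in bp (x axis, 0 marks the start, positive values lie inside the gene's direction of transcription) by histone class, for 24 peaks of E2F1 replicate 1 and 28 of E2F1 replicate 2. H2B points sit left of 0 in both panels, and the H2A points sit right of it apart from 1 in replicate 2. The H2B points of H2bc14 and H2bc3 are summits inside the H2A pseudogenes H2ac14 and H2ac5-ps.

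Promoter sequences were found for 62 of the 70 genes (63 promoters, since H2bc6 has 2 starts), each of 300 bases. The E2F motif was in 10 of 63 (15.9%) and in 2.26% of all 32850 promoters of the table. The 10 were H4c1, H2ac10 and both sides of the H2ac22/H2bc22, H2ac12/H2bc12, H2ac11/H2bc11 and H2ac7/H2bc7 pairs, where 1 match is counted from either gene. It was in 8 of 36 promoters of genes with a peak in both libraries, 2 of 7 of genes with a peak in one and 0 of 20 of genes with none. Over the 17491 protein-coding genes with a promoter in the table, 66.3% of those with the motif and 34.1% of those without it had a peak in both libraries.

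Most promoters of histone genes with a peak in both libraries had no such match. The matches at the H2A and H2B genes lay farther from the summits than at H4c1. Where a peak was present, summits lay 183 to 302 bp from the TTTCGCGC match, compared with 7 and 16 bp at H4c1. The GCGGCAAA match of H2ac22 was nearer, 118 bp from the summit in replicate 1 and 100 bp in replicate 2, inside the peak in both, and that of H2ac11 was 208 bp away in replicate 2. Of 11 distinct match positions, 6 were inside a peak in replicate 1, 8 in replicate 2 and 6 in both. Those in both were the matches of H4c1 and of H2ac22. The TTTCGCGC matches of H2ac12, H2ac11 and H2ac10 lay inside no peak in either library, and that of H2ac7 inside a peak in replicate 2 only. With only TTTCCCGC and TTTGGCGC counted, H4c1 was the sole histone promoter with a match, 1.59% of 63 against 1.56% of all promoters.

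Other histone promoter elements were counted the same way, on both strands. The octamer ATTTGCAT was in 20.6% of the histone promoters and 1.74% of all, in 7 of 15 H2B and 6 of 17 H2A promoters and in no other class. Matches between head-to-head genes could be counted from either gene. For the octamer this was so at the H2ac12/H2bc12, H2ac8/H2bc8 and H2ac1/H2bc1 pairs. CCAAT was in 82.5% against 37.4%, TATAAA in 54.0% against 13.6%, and the H1 element AAACACA in 14.3% against 7.18%, with 5 of 10 H1 promoters among them. The octamer was in 7 of 36 promoters of genes with a peak in both libraries and 6 of 20 of genes with none. CpG dinucleotides numbered a median of 11 in the 250 bases before the start at genes with a peak in both libraries, 9 at genes with a peak in one and 6 at genes with none, and the median of protein-coding promoters was 10. Whether CpG content or a near-copy bears on the calls was not tested.

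The genes that drive or process histone mRNA were also compared, from a list of 20. Of these factors, 18 (90%) had a peak in both E2F1 libraries, against 34.4% of protein-coding genes, and 0 had one in either EV library. At or above the median score the count was 11 of 20, with 16.9% for protein-coding genes. With the full lists, Hinfp and Cpsf3 had a peak in replicate 2 only. Ccne1, which encodes cyclin E1, had a fold enrichment of 65.0 in replicate 1 and 131.6 in replicate 2. Slbp, which encodes the protein that binds the histone mRNA stem-loop, had 46.5 and 90.5. Ccne2, for cyclin E2, had 45.3 and 64.5, and Eri1, for an exonuclease that trims the stem-loop, had 32.1 and 56.3. The median score percentile of the factors was 66.3 and 73.3.

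Histone genes that are expressed outside S phase had peaks as well. All 9 replication-independent histone genes had a peak in both E2F1 libraries, against 34.4% of protein-coding genes, and none had one in EV, where the shares were 0.0366% and 0.407%. They had a median score percentile of 73.7 and 74.2. H3f3a, for histone H3.3, had a fold enrichment of 42.0 and 52.7, and Macroh2a1, for macroH2A, had 23.6 and 49.3. H2az2, which encodes an H2A.Z form, had 19.2 and 52.8. Per gene in the same way, by its highest-scoring peak, the median fold enrichment was 13.5 and 20.6 for these 9 genes, 11.5 and 21.0 for the factors with a peak in that library, and 10.5 and 10.5 for the replication-dependent genes with a peak in both libraries, and the difference between the lists of genes was not tested.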

How the data were processed

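The data were 4 peak lists, 1 per ChIP-seq library. The submitters' processing notes name FastQC, Trimmomatic, Bowtie2, MACS2, ChIPseeker and the build mm10, without settings; the antibody is not given in the sources used here. The 2 input samples of EV cells were not used here. In the lists the authors deposited, peaks have a fold enrichment over local background (a ratio), −log10 p-values and q-values, in the layout MACS2 writes. Each peak also has a score and a summit offset, and all of these are the authors' own values. Fold enrichment, pileup and local background were also compared between the E2F1 lists. Scores were averaged over the E2F1 lists to choose the named genes, and the median score of all E2F1 peaks was applied to both.

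Genes came from RefSeq (GRCm38.p6, the build called mm10), and a window of 1000 bp was added on either side, with an overlap of at least 1 bp. Pileup and local background were solved from fold and p-value, with a fit for over 95% of each list. Percentiles rank a score within its list. Motifs were searched as exact letters in promoters of 250 bases before to 50 after each start. Members, gene lists and tests were chosen with earlier results of these data known. Named were, per class, the 3 members of highest mean score, members with a peak in 1 library, protein-coding members with none, members outside the clusters, and up to 4 examples of each comparison list; other genes named, such as H2ac10, H2ac22 and H2bc6, were chosen after their values were seen. Sympk was read for a misspelt entry of the factor list. E2F1 and EV were compared by an exact permutation test over libraries. Scripts were tested on simulated data and run with python 3.11.15, pandas 2.3.3, numpy 2.4.6 and scipy 1.17.1.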

Additional observations from a re-analysis of the deposited data

How the results depend on the processing

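Of 105 alternatives over 20 results, 85 were labelled the same and 0 reversed, but many labels were fixed by the rules used. For E2F1 against EV the label rested on the exact permutation p, which cannot fall below 0.33. A difference of 23.6% with only peaks at or above the median score, against 62.1%, was therefore labelled the same. Leaving out 1 E2F1 library could not move score rank, fold or distance beyond the limit, the SD of the 2 libraries. Counts of genes could be labelled moved but not reversed. Counting only peaks at or above the median score of 312 lowered the genes with a peak in both E2F1 libraries from 40 to 12: H1 1, H2A 4, H2B 2, H3 2 and H4 3, or chromosome 3 6, group A 3, group B 0, group C 2 and outside 1. The factors then fell to 11 of 20. A window of 0 bp gave 2 H2B genes, 4 H3 genes, 7 genes in group A and 1 in group B, and a median fold of 8.94. Counting only the gene that holds the summit, an alternative chosen after seeing the data, gave 18. The textbook motif forms gave 1.59% of promoters. Leaving out 1 E2F1 library gave 42 to 45 genes and a difference from EV of 60.0% to 64.3% (exact p = 0.33, the smallest that 1 against 2 libraries can give). Without the 9 genes that share a promoter run of 200 bases, also chosen after seeing the data, 33 of 61 (54.1%) had a peak in both. With the replicate number as a block, the difference from EV was 62.1% (exact sign-flip p = 0.5, the smallest that 2 pairs can give). This design cannot reach a usual threshold, and the labels do not say that the numbers pair the samples. Sites weaker than the lists' cut are not seen, and how reads of near-copies were assigned was not tested.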
